A study of Mus musculus with 8 samples.

Results

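Sertoli cells are the somatic cells of the seminiferous tubule that enclose and feed the germ cells. They are described here through 35 genes of their identity, hormones, junctions and secretion, out of 24988 genes listed for adult mouse testis. The genes were taken as a list of symbols chosen with earlier results of these data known, and each symbol matched 1 Ensembl identifier. RNA of whole testis was sequenced in 8 libraries, 4 labelled Kpna2 knockout (genotype Kpna2-/-) and 4 labelled wild type (WT), with 31133443 to 37797812 reads assigned to genes per library. Kpna2 encodes an importin alpha, an adaptor for the import of proteins into the nucleus. The comparison asked how loss of Kpna2 alters gene expression in the testis. The sources used here name neither the strain, the design of the deleted allele nor the age in weeks, and do not say whether each library came from its own animal. The p-values therefore cover the spread between libraries, which may be technical. No cell type was sorted, so fewer Sertoli cells and less RNA per Sertoli cell cannot be told apart in any value below.

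As background, SOX9, WT1 and GATA4 set up and maintain the Sertoli cell fate. Follicle-stimulating hormone acts on these cells through its receptor FSHR, and androgens act through the androgen receptor. Claudins, occludin and the scaffold protein ZO-1 seal the blood-testis barrier between neighbouring Sertoli cells, and N-cadherin and gap junctions couple them to each other and to germ cells. Sertoli cells also secrete clusterin, transferrin, defensin-like proteins and cystatins into the tubule, and GDNF and KIT ligand that act on spermatogonia.

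Values are CPM, that is reads per gene in the authors' scaling, which gives column sums of 990244 to 1025489, and log2 fold changes are differences of mean log2(CPM + 0.5), knockout label minus wild-type label, with their SE; this scale understates the change of low genes. A gene is said to rise or fall where limma's adjusted p over all 22027 tested genes was under 0.05. Kpna2 itself went against the labels. It stood at 15.3, 20.2, 19.4 and 21.7 CPM in the libraries labelled knockout, against 13.97, 15.1, 14.04 and 12.4 CPM in those labelled wild type (log2 fold change 0.44, SE 0.10, limma adjusted p = 0.0079, exact two-sided permutation p = 0.029, the smallest that 4 against 4 allow). Reads are given per gene and not per exon, so whether the exons targeted in the allele were read was not tested. Every direction below is that of the labels.

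Of the 35 genes, 34 passed the filter on low values (mean over the 8 libraries no lower than 0.5 CPM). Krt18 was left out by it. Of these 34, 7 fell in the libraries labelled knockout (Sox9, Rhox5, Gja1, Jam2, Vim, Defb36 and Tsx) and 1 rose (Cdh2). That is 20.6% lower and 2.94% higher, beside 8.32% lower and 8.62% higher over all tested genes and 16.9% called in either direction. Since the list was chosen with earlier results of these data known, the shares in this paragraph only describe it. The median log2 fold change of the 34 was -0.13, beside -0.01 over all tested genes, and 30 of 34 had a negative log2 fold change, beside 52.4% of all tested genes. The size of the changes was small, between -0.57 for Sox9 and 0.40 for Cst9, which did not pass the test. The 4 values under the knockout label lay wholly below the 4 under the wild-type label for 9 genes, where 10.7% of all tested genes did so, and wholly above for 1, where 10.1% did.

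**Figure D1:**
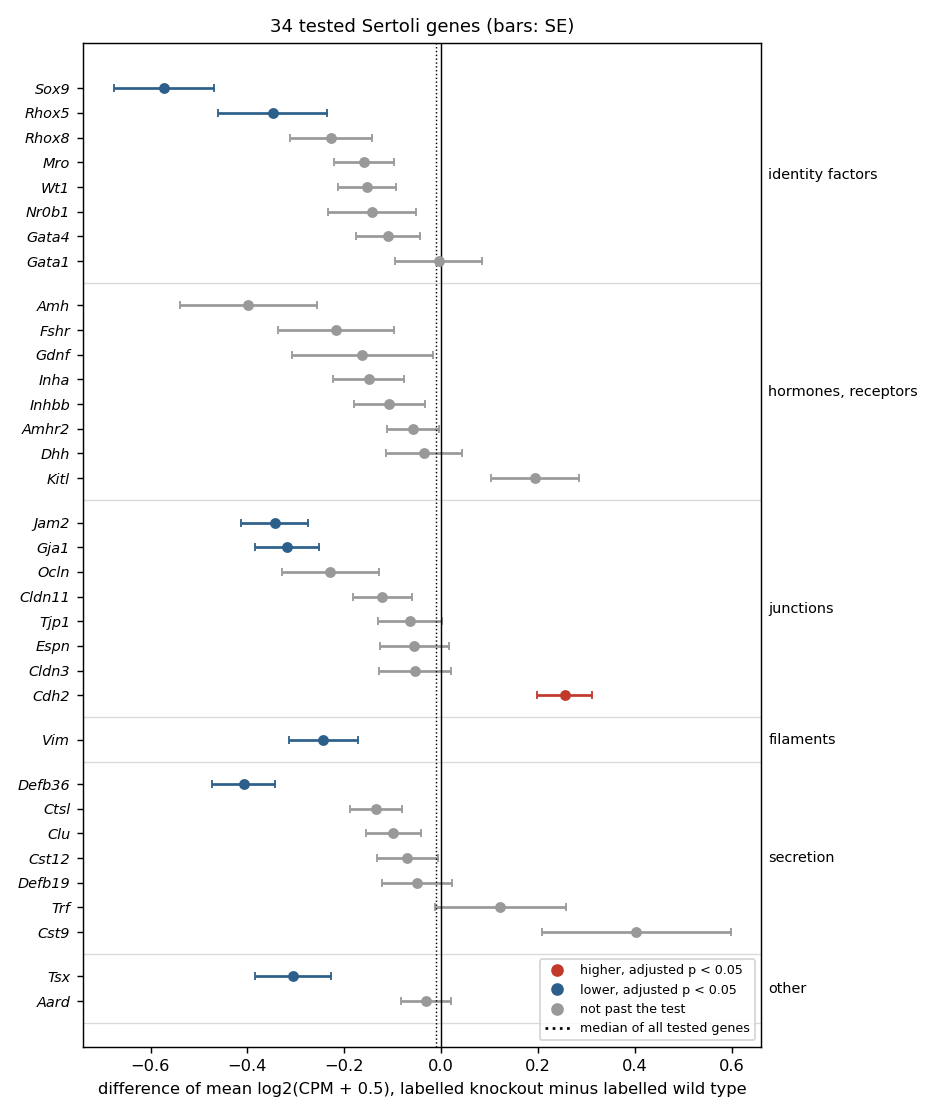
Log2 fold change of each of the 34 tested Sertoli genes on the horizontal axis (difference of mean log2(CPM + 0.5), knockout label minus wild-type label, bars: SE), ordered by role down the page. Blue points fell, red points rose and grey points did not pass limma's test, and the dotted line marks the median of all tested genes, -0.01.

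The libraries under the knockout label did not stand equally low. The median difference of the 34 genes from the mean of the libraries labelled wild type, on the log2 scale, was -0.13, -0.13, -0.08 and -0.19 in knockout replicates 1 to 4, against 0.04, -0.07, 0.03 and -0.01 in wild-type replicates 1 to 4. Knockout replicate 4 held the lowest of the 8 values for 14 of the 34 genes, knockout replicate 1 for 8, replicate 3 for 5 and replicate 2 for 4, and a wild-type library for the remaining 3. Within the libraries labelled wild type, replicate 2 stood below the group mean for 30 of the 34 genes, and wild-type replicate 1 held the highest value of all for 11. The summed level of all 35 genes was 2534, 2678, 2647 and 2356 CPM under the knockout label, against 2795, 2589, 2696 and 2738 CPM under the wild-type label. These sums overlapped, since knockout replicates 2 and 3 lay above wild-type replicate 2. Clu alone made up 703.9 to 876.2 CPM of each sum. Cst9 added 135 and 115 CPM in knockout replicates 2 and 3, against 64.3 to 69.9 CPM under the wild-type label.

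**Figure D2:**
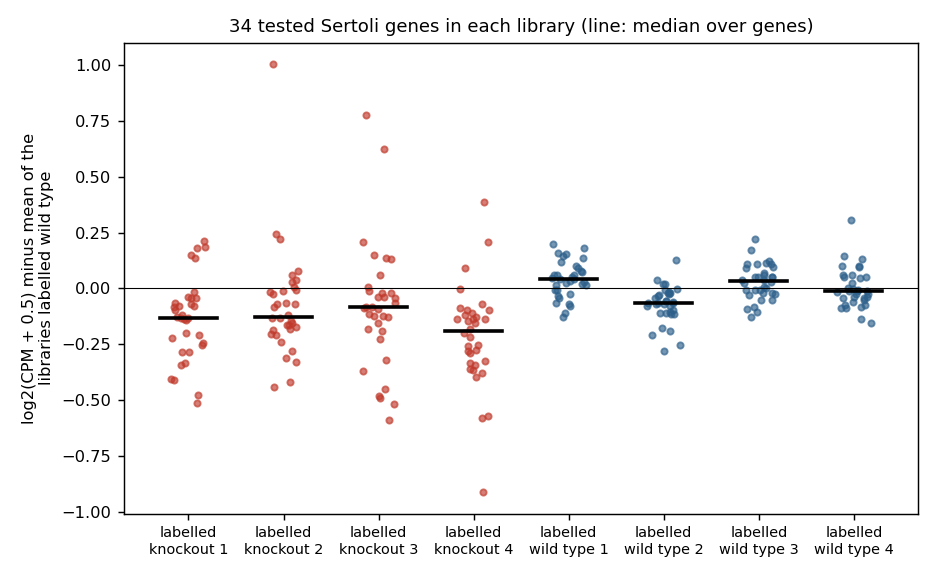
Each point is 1 of the 34 tested Sertoli genes in 1 library, as its log2(CPM + 0.5) minus the mean of the libraries labelled wild type, and the black line is the median over genes. The medians run from -0.19 to -0.08 under the knockout label and from -0.07 to 0.04 under the wild-type label. The 2 points above 0.5 in knockout replicate 3 are Cst9 and Trf.

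Markers of several other somatic cell types also differed between the labels. Over all tested genes, 8.32% were lower and 8.62% higher. Of 6 fibroblast markers 5 fell and none rose, and their summed level was 45.6 to 85.2 CPM under the knockout label, against 130.4 to 165 CPM under the wild-type label. Of 6 markers of peritubular myoid cells 4 fell and none rose (292 to 304 against 344 to 413 CPM), and of 8 Leydig cell markers 4 fell and 1 rose (746 to 1164 against 1123 to 1324 CPM). Of 6 endothelial markers 2 fell (23.95 to 29.8 against 30.6 to 34.8 CPM), of 4 tested adipocyte markers 1 fell (17.6 to 28.4 against 26.8 to 40.1 CPM for 5 listed), and of 7 macrophage markers none was called (59.4 to 75.96 against 66.6 to 73.3 CPM). Of 5 red blood cell markers 1 fell (29.99 to 38.99 against 32.7 to 49.1 CPM), as did 1 of 6 spermatogonial (88.2 to 94.6 against 89.3 to 100.9 CPM) and 1 of 6 spermatocyte markers (4968 to 5496 against 5176 to 5341 CPM). None of 6 spermatid markers was called (15820 to 21630 against 18820 to 19920 CPM). A single call in so short a list is not read here as a change of the cell type. None of the markers in these sums was at 0 in every library, and their part in the Sertoli results was not tested. The 13 defining Sertoli markers were all present, with a summed level of 474.7, 575.9, 526.1 and 447.9 CPM under the knockout label, against 530.0, 499.5, 536.1 and 511.0 CPM under the wild-type label. Of these 13, 3 fell (Sox9, Rhox5 and Defb36). Cst9 is also among the 13, and its 135 and 115 CPM in knockout replicates 2 and 3 raised the sums there. With each of the 13 weighted equally, the mean log2 difference from the wild-type mean was -0.21, -0.05, -0.13 and -0.32 in knockout replicates 1 to 4. In wild-type replicates 1 to 4 it was 0.03, -0.05, 0.04 and -0.02.

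**Figure D3:**
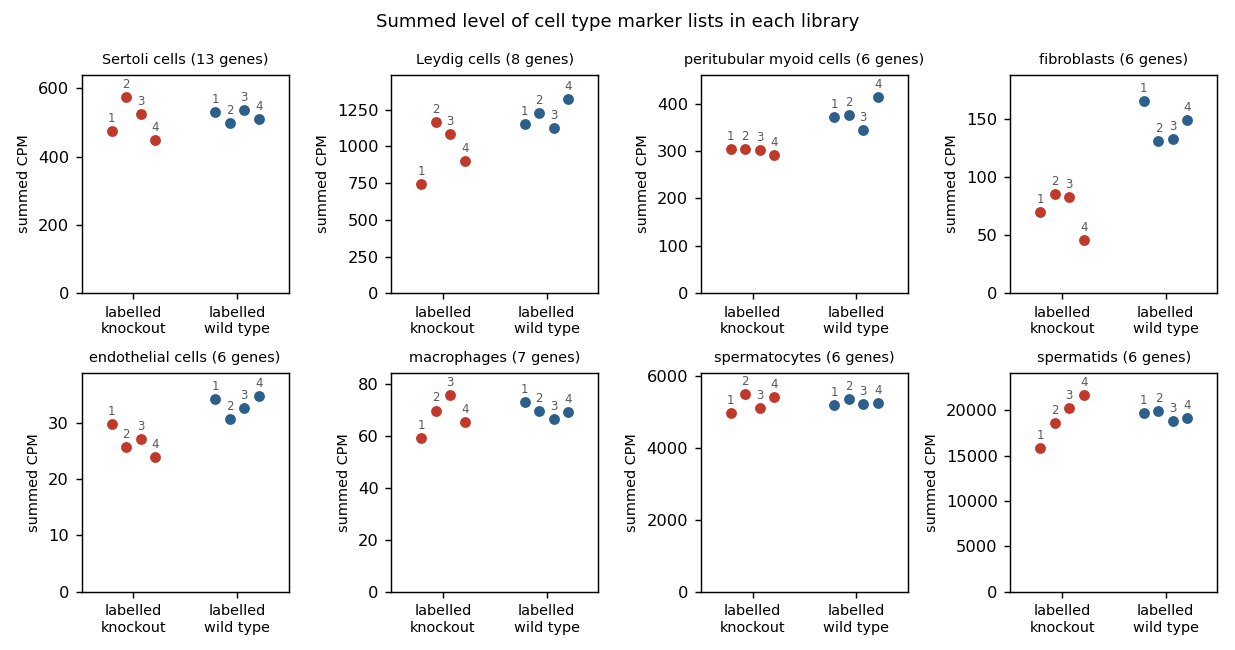
Summed CPM of each cell type marker list in each library (points, numbered by replicate), libraries labelled knockout left of those labelled wild type, each vertical axis starting at 0. The fibroblast, peritubular myoid and endothelial sums do not overlap between the labels, whereas the Sertoli, Leydig, macrophage, spermatocyte and spermatid sums do. The Sertoli sum includes Cst9, which is high in knockout replicates 2 and 3.

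Among the 8 identity and nuclear factors, Sox9 and Rhox5 fell and none rose. That is 25% lower, beside 8.32% lower and 8.62% higher over all tested genes. All 8 had a negative log2 fold change, beside 52.4% of all tested genes, though that of Gata1 was only -0.005. Sox9 (ENSMUSG00000000567; chromosome 11, 112782224 to 112787760 in GRCm38), the transcription factor that starts and keeps the Sertoli fate, stood at 13.2, 12.9, 12.2 and 9.17 CPM in the libraries labelled knockout, against 19.1, 17.2, 18.1 and 16.6 CPM in those labelled wild type. The groups did not overlap, and knockout replicate 4 was the lowest. Its mean was 33.1% lower (log2 fold change -0.57, SE 0.10, limma adjusted p = 0.0017), and it was called in all 20 alternative analyses.

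Rhox5, an X-linked homeobox gene of Sertoli cells known in mouse to respond to androgen, stood at 14.01, 14.6, 10.1 and 10.2 CPM under the knockout label, against 15.99, 15.9, 15.5 and 14.6 CPM under the wild-type label. The call came from knockout replicates 3 and 4, while replicates 1 and 2 lay at or near the lowest wild-type value (log2 fold change -0.35, SE 0.11, limma adjusted p = 0.049). It was lost without knockout replicate 3 or 4 (limma adjusted p = 0.13 and 0.14) and without wild-type replicate 1, 2, 3 or 4 (0.11, 0.11, 0.096 and 0.066), within a range of 0.017 to 0.14 over the 20 alternatives. Rhox8, of the same X-linked homeobox cluster, was also lowest in knockout replicates 3 and 4, with 17.98, 18.8, 15.1 and 15.5 CPM under the knockout label, against 18.01, 19.4, 20.1 and 21.7 CPM under the wild-type label. This difference missed the threshold (log2 fold change -0.23, SE 0.09, limma adjusted p = 0.084) but passed without knockout replicate 2 (0.045, in a range of 0.045 to 0.21 over the alternatives). Both genes belong to a family with close copies, and how reads matching several copies were counted is not stated, so their values are uncertain.

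Wt1 and Mro did not overlap between the labels and yet did not pass. Wt1, a zinc finger factor of gonad formation and Sertoli upkeep, had 33.4, 32.5, 32.4 and 28.8 CPM under the knockout label, against 35.2, 34.8, 36.2 and 35.1 CPM under the wild-type label (log2 fold change -0.15, SE 0.06, limma adjusted p = 0.097). Mro, the gene maestro that is expressed in the male gonad, averaged 27.1 ± 0.805 and 30.3 ± 1.89 CPM under the knockout and the wild-type label (SD, n = 4 each; limma adjusted p = 0.095). The remaining factors overlapped between the labels. Gata4, a partner of WT1 in Sertoli gene control that Leydig cells also express, averaged 24.1 ± 1.40 CPM under the knockout label and 26.02 ± 1.46 CPM under the wild-type label (limma adjusted p = 0.30). Gata1, which mature Sertoli cells express in a stage-dependent way, averaged 10.1 ± 0.945 and 10.1 ± 0.775 CPM under the knockout and the wild-type label (limma adjusted p = 0.98). Nr0b1, encoding the orphan receptor DAX1, averaged 17.6 ± 0.538 CPM under the knockout label and 19.6 ± 3.06 CPM under the wild-type label, where replicate 4 reached 24.2 CPM (limma adjusted p = 0.32).

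None of the 8 hormone, growth factor and receptor genes passed limma's test, where 16.9% of all tested genes did. Nor did any of them pass with edgeR or with DESeq2. Only Amh had an unadjusted limma p under 0.05. Amh, the anti-Mullerian hormone that immature Sertoli cells make in quantity and mature ones hardly, was low, with 1.84, 2.00, 2.65 and 1.75 CPM under the knockout label, against 3.17, 2.25, 2.96 and 3.07 CPM under the wild-type label, from 60 to 117 reads per library. The values overlapped through knockout replicate 3 and wild-type replicate 2 (log2 fold change -0.40, SE 0.14, limma adjusted p = 0.071), and it passed without either of these libraries (0.027 and 0.041, in a range of 0.027 to 0.40 over the alternatives). Its receptor gene Amhr2, which Leydig cells also express, averaged 193.9 ± 11.9 CPM under the knockout label and 202 ± 7.37 CPM under the wild-type label (limma adjusted p = 0.50).

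Fshr, the receptor of follicle-stimulating hormone, had 1.58, 1.72, 2.10 and 1.66 CPM under the knockout label, against 2.11, 1.99, 2.29 and 2.10 CPM under the wild-type label, from 54 to 80 reads (log2 fold change -0.22, SE 0.12, limma adjusted p = 0.25). The inhibin subunits, which feed back on the pituitary, averaged 79.3 ± 5.92 and 88.2 ± 8.85 CPM for Inha and 29.6 ± 1.73 and 31.95 ± 3.01 CPM for Inhbb under the knockout and the wild-type label (limma adjusted p = 0.19 and 0.36). Dhh, the hedgehog ligand that signals to Leydig and peritubular cells, averaged 11.9 ± 0.295 and 12.2 ± 1.0 CPM (limma adjusted p = 0.80). Its exons share bases with Rhebl1 and an antisense gene, at 2.78 and 1.47 CPM over all libraries, so its reads are uncertain. Both factors for spermatogonia stood in opposite directions without passing. Gdnf, which maintains spermatogonial stem cells, averaged 1.11 ± 0.287 CPM under the knockout label and 1.28 ± 0.150 CPM under the wild-type label (log2 fold change -0.16, SE 0.15), and Kitl, the ligand of KIT on differentiating spermatogonia, 17.2 ± 0.50 and 15.1 ± 2.08 CPM (log2 fold change 0.19, SE 0.09, limma adjusted p = 0.17).

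Of the 8 junction genes, Gja1 and Jam2 fell and Cdh2 rose. That is 25% lower and 12.5% higher, beside 8.32% lower and 8.62% higher over all tested genes. The tight junction strand genes and their scaffold did not pass, and neither did Espn. Gja1 (ENSMUSG00000050953; chromosome 10, 56377330 to 56402513 in GRCm38) encodes connexin 43, the main gap junction protein of Sertoli cells, which Leydig cells also carry. It stood at 38.04, 44.8, 40.3 and 38.8 CPM under the knockout label, against 51.1, 46.7, 54.8 and 49.9 CPM under the wild-type label. The groups did not overlap (log2 fold change -0.32, SE 0.07, limma adjusted p = 0.0044). Jam2 (ENSMUSG00000053062; chromosome 16, 84774123 to 84825928), an adhesion molecule of Sertoli and endothelial cells, stood at 25.5, 25.1, 22.7 and 24.8 CPM, against 32.01, 31.2, 34.1 and 28.1 CPM under the wild-type label, again with no overlap (log2 fold change -0.34, SE 0.07, limma adjusted p = 0.0036). Each of the 8 libraries could be left out in turn without ending the call of Gja1 or Jam2.

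Cdh2 (ENSMUSG00000024304; chromosome 18, 16588877 to 16809246 in GRCm38) encodes N-cadherin, which joins Sertoli cells to each other and to germ cells and is also made by germ cells. It stood at 60.9, 63.5, 61.98 and 70.2 CPM under the knockout label, against 51.2, 52.7, 55.02 and 55.5 CPM under the wild-type label. All 4 values under the knockout label were higher, with replicate 4, the lowest library for Sox9, the highest here. Its log2 fold change of 0.25 (SE 0.06, limma adjusted p = 0.0071) passed the test, and it was called in all 20 alternative analyses.

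Cldn11, the claudin that seals the mouse blood-testis barrier, averaged 73.4 ± 5.82 CPM under the knockout label and 79.8 ± 3.21 CPM under the wild-type label (log2 fold change -0.12, SE 0.06, limma adjusted p = 0.20), with knockout replicate 4 lowest at 65.7 CPM. Cldn3, a claudin known in mouse to respond to androgen, averaged 62.6 ± 6.33 and 64.9 ± 5.001 CPM, Tjp1, encoding ZO-1, 93.9 ± 9.39 and 97.95 ± 4.34 CPM, and Ocln, occludin, 5.19 ± 0.330 and 6.19 ± 0.586 CPM (limma adjusted p = 0.68, 0.55 and 0.14). The exons of Cldn3 overlap an antisense gene of 304 CPM by 40 bases, and the strand setting of the counting is not given. Espn, which bundles actin at the ectoplasmic specialization where Sertoli cells hold spermatids, averaged 108.0 ± 10.8 and 112 ± 8.26 CPM (limma adjusted p = 0.64).

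The 250 bases before the start of Gja1 are shown as the example of a junction gene that fell and had an entry in the RefSeq promoter table, in which 5 of the 8 called Sertoli genes were found. Capitals mark every match, on either strand, to any of the following motifs. For factors of the GATA family the letters AGATAA and also TGATAA were searched. For SOX factors the letters AACAAT and also ACAAAG were used. NR5A1 was represented by AAGGTCA, the E-box by the palindrome CACGTG and the TATA box by TATAAA. For the androgen receptor the letters TGTTCT were used, which are only part of its site. The capitals here are 1 GATA match on the other strand, 135 to 130 bases before the RefSeq start, and no matches overlapped in the promoters shown. For Gja1 the RefSeq start lies upstream of the GENCODE start at 56377330 given above.
Gja1 promoter, chr10:56377050-56377299, GRCm38.p6, plus strand: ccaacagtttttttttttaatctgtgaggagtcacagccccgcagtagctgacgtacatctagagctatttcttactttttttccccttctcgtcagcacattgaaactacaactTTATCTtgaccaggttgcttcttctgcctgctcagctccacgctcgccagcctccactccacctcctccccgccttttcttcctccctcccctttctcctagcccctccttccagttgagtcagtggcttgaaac
GATA letters were found in 16.6% of all 32851 windows of this length and in 6 of 27 windows of the 23 Sertoli genes with an entry, SOX letters in 24.0% and 6 of 27, and the androgen receptor letters in 16.1% and 2 of 27. NR5A1, E-box and TATA letters stood in 4.08%, 6.02% and 12.4% of all windows and in 1, 2 and 4 of the 27. A match describes letters in a window and is not a bound site.

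**Figure D4:**
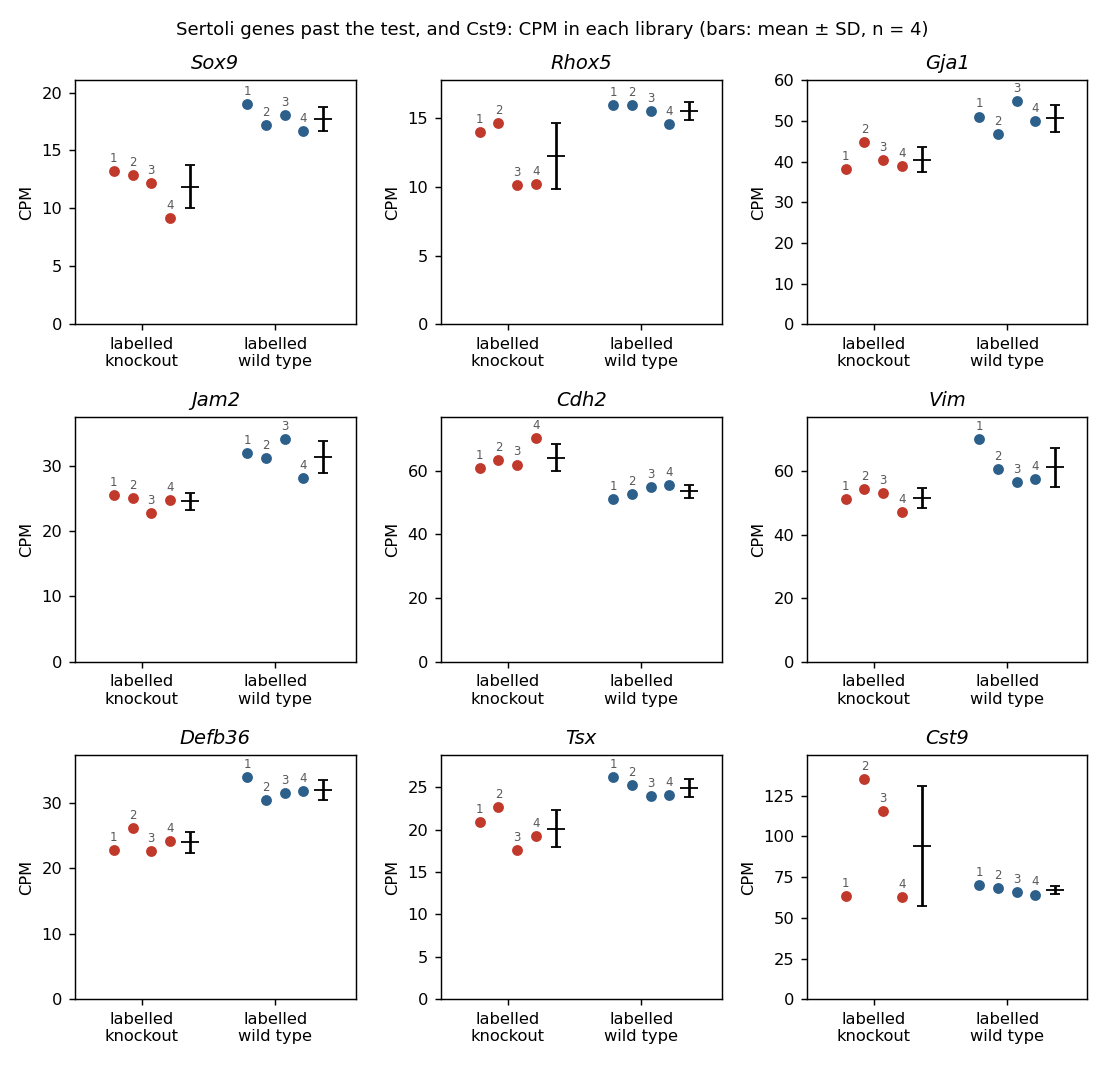
CPM in each library (points, numbered by replicate) of the 8 Sertoli genes past limma's test and of Cst9, libraries labelled knockout left of those labelled wild type, with mean ± SD (n = 4) and vertical axes from 0. Rhox5 is low in knockout replicates 3 and 4, and Cst9 is high in knockout replicates 2 and 3 alone.

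Vim, the intermediate filament gene vimentin (ENSMUSG00000026728; chromosome 2, 13573927 to 13582826 in GRCm38), which Sertoli cells share with fibroblasts, endothelium and most interstitial cells, stood at 51.1, 54.3, 53.3 and 47.3 CPM under the knockout label, against 70.1, 60.7, 56.5 and 57.4 CPM under the wild-type label. The groups did not overlap, although knockout replicate 2 and wild-type replicate 3 were close (log2 fold change -0.24, SE 0.07, limma adjusted p = 0.031). The call was lost without knockout replicate 1 or 4 (limma adjusted p = 0.053 and 0.091) and without wild-type replicate 1 or 2 (0.095 and 0.068), and adjusted p ran from 0.011 to 0.21 over the 20 alternatives. The fibroblast, myoid and endothelial sums given above were also lower in these libraries, and their part in the level of Vim was not tested. Krt18, a keratin of immature Sertoli cells, stood at 0.346 ± 0.123 CPM under the knockout label and 0.398 ± 0.216 CPM under the wild-type label, from 7 to 24 reads per library, and was not tested.

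Of the 7 secretion genes, Defb36 fell and none rose. That is 14.3% lower, beside 8.32% lower and 8.62% higher over all tested genes. Cst9 differed between libraries of the same label. Defb36 (ENSMUSG00000044863), a gene of the beta-defensin family expressed in Sertoli cells, stood at 22.8, 26.2, 22.7 and 24.2 CPM under the knockout label, against 34, 30.5, 31.5 and 31.8 CPM under the wild-type label. The groups were well apart (log2 fold change -0.41, SE 0.07, limma adjusted p = 0.00067), and it was called in all 20 alternative analyses. Defb19, of the same chromosome 2 cluster, averaged 99.99 ± 9.36 and 103.5 ± 9.05 CPM under the knockout and the wild-type label (log2 fold change -0.05, SE 0.07, limma adjusted p = 0.70). The window before the start of Defb36 is shown because this gene had the smallest p of the 35. Its capitals include 2 matches to the androgen receptor letters, 209 to 204 and 160 to 155 bases before the start. These letters are only part of a site and were found in 16.1% of all windows. The other capitals are 1 SOX match, 25 to 20 bases before the start.
Defb36 promoter, chr2:152604077-152604326, GRCm38.p6, plus strand: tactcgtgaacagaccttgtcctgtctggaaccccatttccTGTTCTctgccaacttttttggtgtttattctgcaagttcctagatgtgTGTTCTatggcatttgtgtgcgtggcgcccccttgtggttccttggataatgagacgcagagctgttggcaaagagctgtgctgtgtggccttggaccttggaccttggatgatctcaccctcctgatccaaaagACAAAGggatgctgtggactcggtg

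Cst9 (ENSMUSG00000027445; chromosome 2, 148835147 to 148838738 in GRCm38), the cystatin-related gene testatin, stood at 63.2, 135, 115 and 63.04 CPM in the libraries labelled knockout, against 69.9, 68.05, 66.1 and 64.3 CPM in those labelled wild type. Knockout replicates 2 and 3 thus lay far above all other libraries, and replicates 1 and 4 just below the wild-type values, so the log2 fold change of 0.40 (SE 0.19, limma adjusted p = 0.18) describes neither pair. Cst12, a cystatin gene in the same cluster, showed no such split, with 69.9, 81.2, 71.99 and 70.3 CPM under the knockout label, against 79.3, 71.02, 82.8 and 74.8 CPM under the wild-type label (limma adjusted p = 0.50). Both lie in a family with similar copies, so that their reads are uncertain. The window before Cst9 is shown because of this split, with 1 SOX match on the other strand, 152 to 147 bases before the start, and 1 GATA match, 57 to 52 bases before it.
Cst9 promoter, chr2:148834897-148835146, GRCm38.p6, plus strand: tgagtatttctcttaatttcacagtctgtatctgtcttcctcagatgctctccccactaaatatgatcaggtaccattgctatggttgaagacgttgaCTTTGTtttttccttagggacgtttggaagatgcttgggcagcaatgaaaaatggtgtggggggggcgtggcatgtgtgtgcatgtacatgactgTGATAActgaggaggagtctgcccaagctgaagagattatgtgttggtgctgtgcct

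The other secretion genes did not pass. Clu, clusterin, averaged 787 ± 56.7 CPM under the knockout label and 842 ± 36.8 CPM under the wild-type label (log2 fold change -0.10, SE 0.06, limma adjusted p = 0.27), with knockout replicate 4 lowest at 703.9 CPM. Ctsl, the protease cathepsin L that Sertoli cells secrete in a stage-dependent way, had 305, 301, 277 and 264 CPM under the knockout label, against 309, 309.6, 313 and 326 CPM under the wild-type label. Its groups did not overlap, without passing (log2 fold change -0.13, SE 0.05, limma adjusted p = 0.097), and it passed without knockout replicate 1 (0.049, in a range of 0.049 to 0.26 over the alternatives). The exons of Ctsl share 26.8% of their bases with an antisense gene, Gm47123, and 6.1% with a pseudogene on the same strand, Gm49230. Its reads are therefore uncertain. Trf, transferrin, which carries iron to germ cells, stood at 23.3, 20.97, 37.2 and 25.5 CPM, against 26.8, 23.7, 21.9 and 23.7 CPM under the wild-type label. A single library, knockout replicate 3, was high: the log2 fold change was 0.12 with it (SE 0.13, limma adjusted p = 0.59) and -0.0451 without it. Its exons are shared to 63.5% with another annotated gene, Gm20425, on the same strand, which makes its reads uncertain.

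Of both remaining genes, Tsx fell and Aard did not pass, where 8.32% of all tested genes fell. Tsx (ENSMUSG00000031329; chromosome X, 103414467 to 103424580 in GRCm38), a testis gene close to the X inactivation centre, stood at 20.9, 22.6, 17.6 and 19.3 CPM under the knockout label, against 26.2, 25.2, 23.9 and 24.1 CPM under the wild-type label, with no overlap (log2 fold change -0.31, SE 0.08, limma adjusted p = 0.015). It was not called without wild-type replicate 1 (limma adjusted p = 0.053, in a range of 0.0039 to 0.062 over the alternatives). The exons of Tsx share 4.6% of their bases with another annotated gene, Gm26992, on the same strand. Aard, an alanine- and arginine-rich protein gene of Sertoli cells, averaged 128.8 ± 5.42 and 131.7 ± 6.92 CPM under the knockout and the wild-type label (limma adjusted p = 0.72). The window before Tsx is shown as that of an X-linked gene that fell, and its capitals are 1 GATA match, 32 to 27 bases before the start.
Tsx promoter, chrX:103414217-103414466, GRCm38.p6, plus strand: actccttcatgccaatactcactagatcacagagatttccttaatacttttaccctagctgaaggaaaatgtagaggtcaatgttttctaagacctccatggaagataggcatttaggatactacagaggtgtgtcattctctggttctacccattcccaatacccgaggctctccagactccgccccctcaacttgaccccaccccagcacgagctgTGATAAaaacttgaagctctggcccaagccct

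Levels between genes were compared as CPM per kilobase of exon, with lengths from GENCODE M21. The order ran from Defb19, with 254 under the knockout label and 263 under the wild-type label, and Clu, with 229 and 245, down to Fshr, Gdnf and Krt18, with 0.747, 0.302 and 0.241 under the knockout label, against 0.899, 0.35 and 0.277 under the wild-type label. Cst9, Cst12, Amhr2 and Aard followed Clu with 137, 112, 96.7 and 95.5 CPM per kilobase under the knockout label, against 97.7, 117.5, 100.6 and 97.7 under the wild-type label. Cst9, Cst12, Amhr2 and Aard did not pass limma's test, as given above, and the high mean of Cst9 came from knockout replicates 2 and 3. The factors Sox9 and Gata1 stood among the lower genes, at 2.87 and 4.14 CPM per kilobase under the knockout label, against 4.29 and 4.15 under the wild-type label. The genes that fell were thus found over the range from Defb36 (51.2 against 68.3) to Sox9.

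**Figure D5:**
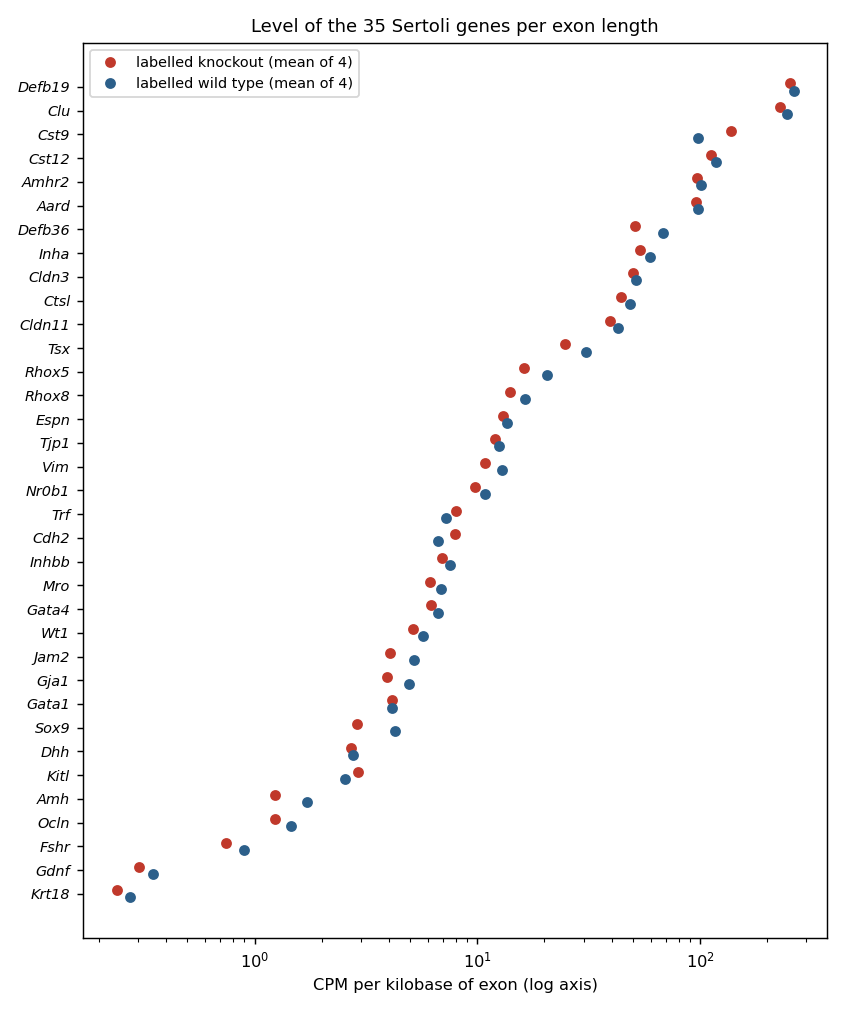
Mean CPM per kilobase of exon (log axis) of the 35 Sertoli genes, ordered by their level over all 8 libraries, with the mean of the 4 libraries labelled knockout and of the 4 labelled wild type. The genes span from 0.259 (Krt18) to 258 (Defb19) CPM per kilobase over all libraries.

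A further 75 genes known in Sertoli cells were listed beside the 35, of which 70 were tested. They went both ways: 9 fell (12.9%) and 12 rose (17.1%), beside 8.32% lower and 8.62% higher over all tested genes. Their median was -0.06 on the log2 scale, beside -0.01 over all tested genes. The junction genes had 1 fall and 3 rises among 21 (4.76% and 14.3%). Itga6, an integrin subunit, fell, with 11.4, 10.4, 11.9 and 10.8 CPM under the knockout label, against 17.2, 13.1, 14.4 and 14.3 CPM under the wild-type label (log2 fold change -0.38, SE 0.09, limma adjusted p = 0.0088). Ncam1 rose in the fit of all libraries and was lost without knockout replicate 3, wild-type replicate 1 or wild-type replicate 4 (limma adjusted p = 0.066, 0.076 and 0.069).

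The secretion and nutrient genes had 6 falls and 6 rises among 28 (21.4% each, beside 8.32% lower and 8.62% higher over all tested genes). Aldh1a1, a retinaldehyde dehydrogenase of retinoic acid synthesis, fell, with 200, 217, 185.7 and 185.7 CPM under the knockout label, against 266, 286, 297 and 320.2 CPM under the wild-type label (log2 fold change -0.57, SE 0.06, limma adjusted p = 4.1e-05). Slc38a5, a glutamine transporter of Sertoli cells, fell, with 7.94, 10.2, 9.56 and 7.28 CPM against 16.1, 12.1, 12.2 and 16.95 CPM under the wild-type label (log2 fold change -0.68, SE 0.13, limma adjusted p = 0.0024). Ptgds, prostaglandin D synthase, rose, with 273, 361, 240.5 and 373 CPM against 193, 93.7, 183 and 126 CPM under the wild-type label (log2 fold change 1.1, SE 0.20, limma adjusted p = 0.0015).

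Among the other factors, Zfpm1, a cofactor of GATA proteins, rose and Dmrt1, a factor of Sertoli and germ cells, fell (limma adjusted p = 0.027 and 0.041). That is 1 of 8, or 12.5%, in each direction, beside 8.32% lower and 8.62% higher over all tested genes. Among the other hormone and growth factor genes Fgf2 and Cxcl12 rose and Insr fell (limma adjusted p = 0.030, 0.048 and 0.036), 15.4% higher and 7.69% lower of 13. With 1 library left out, most of these calls were lost, with adjusted p from 0.05 to 0.14. Zfpm1 stayed called only without knockout replicate 2 or 4 or wild-type replicate 4, Dmrt1 only without knockout replicate 1 or wild-type replicate 4, and Fgf2 only without knockout replicate 2 or 3 or wild-type replicate 1. Insr and Cxcl12 stayed called only without knockout replicate 1 or wild-type replicate 3. The 8 genes known in mouse as androgen responsive, a list that shares Rhox5, Rhox8, Cldn3 and Cldn11 with the 35, had 3 falls and no rise, beside 8.32% lower over all tested genes. All 8 log2 fold changes were negative, with a median of -0.20, beside 52.4% negative and a median of -0.01 over all tested genes. The shared genes are already counted among the 35, and this list too was chosen with earlier results of these data known. Besides Rhox5, which was called in 7 of the 20 alternative analyses, the falls were Drd4, a dopamine receptor gene, with 7.50, 8.27, 7.10 and 6.84 CPM under the knockout label, against 11.04, 10.9, 9.54 and 11.03 CPM under the wild-type label (log2 fold change -0.49, SE 0.09, limma adjusted p = 0.0018), and Gpd1, a glycerol phosphate dehydrogenase, with 23.3, 26.3, 24.5 and 21.4 CPM against 31.2, 26.9, 30.5 and 29.8 CPM under the wild-type label (log2 fold change -0.30, SE 0.07, limma adjusted p = 0.011).

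The count of Sertoli genes that fell was 4 without wild-type replicate 1, where 1333 of all tested genes fell instead of 1833, and 3 (Sox9, Jam2 and Defb36) when knockout replicates 1 and 4, lowest in the markers of Leydig cells and adipocytes, were left out together, where 1193 did. That choice was made after seeing the data and leaves 2 libraries against 4.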

How the data were processed

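Total RNA of adult testis was extracted with TRIzol, treated with DNase and made into libraries with a TruSeq RNA kit, per the labels' protocols. Trimmomatic, Subread and featureCounts and the build GRCm39 (mm39) are named in the submitters' processing notes, while the sources used here give no versions, annotation, strand setting or rule for multiply matching reads. The authors deposited 1 table of 24988 genes by 8 libraries as a scaled signal per library, named CPM, whose column sums run from 990244 to 1025489, where plain CPM would give the same sum in each library. Columns named kpn and control were matched by number to the knockout and the wild-type titles. All values (100%, tolerance 0.01) were whole multiples of the smallest value of their column, which gave back whole reads, 31133443 to 37797812 per library. A floor of 3 reads is 0.0786 to 0.0968 CPM, for counting error only. No pair of replicates agreed within sampling noise (chi-square of reads per degree of freedom 4.63 to 11.7).

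The main test was limma 3.58.1 (R 4.3.3, eBayes with a variance trend) on log2(CPM + 0.5). It covered the 22027 genes averaging 0.5 CPM or more over the libraries, with Benjamini-Hochberg adjustment over all of them and a threshold of 0.05. The plan assumed plain CPM, and its log-scale test was kept for these scaled values. It was tried on simulated data in which every planted change was larger than that of any called Sertoli gene. Recovery of smaller changes was not checked. The 35 genes, the 75 further Sertoli genes, the androgen list and the marker lists were chosen with earlier results of these data known. All 35 were named, and of the other Sertoli lists up to 3 called genes of smallest p and the first in the other direction. The result of 1 gene that this rule names is not reported here. A list of 6 duct markers was not analysed here. The alternatives changed the scaling (median ratio, quantile), the pseudocount (0.1 or 2 CPM), the filter (none, or 2 CPM) or the model (without the trend, with arrayWeights, or with replicate number as a block). Others left out each library in turn, or used edgeR 4.0.16 (quasi-likelihood) and DESeq2 1.42.0 (Wald) on the recovered reads. The addition after seeing the data left out knockout replicates 1 and 4. Symbols (24890 of the identifiers), positions, overlaps and lengths came from GENCODE M21 on GRCm38, another build than the authors used, and were not converted. Promoters came from a RefSeq table on GRCm38.p6.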

Additional observations from a re-analysis of the deposited data

Results flagged for a closer look

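Of 72 groups of 4 values (the 35 Sertoli genes and Kpna2 under both labels), 3 held a library that stood far from the other 3 by Dixon's 95% criterion, and chance marks about 1 in 20 such groups. Espn stood at 124 CPM in knockout replicate 3, against 101.9 to 103 CPM in the others of that label. Nr0b1 stood at 24.2 CPM in wild-type replicate 4, against 17.9 to 18.3 CPM in the others. Gdnf stood at 1.51 CPM in wild-type replicate 3, against 1.19 to 1.23 CPM in the others.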

How the results depend on the processing

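Of the 34 tested Sertoli genes, Sox9, Jam2, Defb36 and Cdh2 kept their call in all 20 alternatives, Gja1 in 19, Tsx in 18, Vim in 14 and Rhox5 in 7. On the recovered reads, edgeR called 6 Sertoli genes lower and 1 higher (1797 and 1897 of all genes), and DESeq2 7 and 1 (1927 and 2050). Leaving out each library in turn gave 4 to 8 lower, with 4 without wild-type replicate 1, and 1 higher each time. Without knockout replicates 1 and 4 together, chosen after seeing the data, the counts were 3 lower and 2 higher (Cdh2 and Cst9), and over all genes 1193 lower and 1228 higher. That choice leaves fewer libraries. Signs turned for 6 genes near 0 that passed in no alternative. Gata1 had a log2 fold change of 0.0003 with median ratio scaling, 0.0243 with quantile normalization and -0.0565 to 0.0453 when a library was left out. Leaving out single libraries gave -0.0868 to 0.0095 for Defb19, -0.0811 to 0.0066 for Dhh and -0.0451 to 0.2256 for Trf. Without knockout replicates 1 and 4, Defb19 had 0.0595, Amhr2 0.0077 and Espn 0.0078. The cause was not tested. The replicate numbers did not pair the libraries (correlation of deviations from the group means -0.03 to 0.04, the best match being the own number for 1 of 4). With the replicate block, 7 Sertoli genes were lower and 1 higher, and over all genes 1678 and 1768. Low depth limits Krt18 (7 to 24 reads), Gdnf (31 to 52) and Fshr (54 to 80).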

Other observations

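Genes near Defb36 and Cst9 were chosen after their values had been seen. Defb45, a beta-defensin gene between Defb19 and Defb36, stood at 5.96, 6.55, 4.78 and 5.01 CPM in the libraries labelled knockout, against 7.27, 7.65, 7.76 and 7.78 CPM in those labelled wild type (log2 fold change -0.43, SE 0.11, limma adjusted p = 0.013). Defb21, on the other side of Defb19 in the same cluster, averaged 1.53 CPM under the knockout label and 1.99 CPM under the wild-type label (limma adjusted p = 0.24), and passed without knockout replicate 3 (0.045). Cst8, between Cst12 and Cst9, was highest in the same libraries as Cst9, with 193.5, 278, 245.5 and 230.5 CPM under the knockout label, against 189, 209, 203 and 215 CPM under the wild-type label (log2 fold change 0.20, SE 0.09, limma adjusted p = 0.12), and passed without knockout replicate 1 (0.0083).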
